A study of Caenorhabditis elegans with 8 samples.

Results

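The genes described here are the *npr*, *frpr* and *dmsr* genes of *Caenorhabditis elegans*, which encode known and predicted receptors for neuropeptides. They were chosen by name: every gene called *npr*, *frpr* or *dmsr* followed by a number in a RefSeq gene table, except *frpr-3*, *npr-4*, *npr-22*, *npr-12* and *dmsr-1*. This gave 76 genes, of which 42 were *npr*, 19 *frpr* and 15 *dmsr* genes. The array carried 81 probes for 70 of them, among 19795 genes with a probe, so 6 genes could not be measured: *npr-2*, *frpr-9*, *frpr-10*, *dmsr-4*, *dmsr-12* and *dmsr-16*. The rule itself uses names and no measured value, but the group was chosen with earlier results of these data known.

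Neuropeptides are short peptides cut from larger precursors and released by neurons and other secretory cells. Most act through G protein-coupled receptors, proteins that cross the cell membrane and pass the signal to G proteins inside the receiving cell. In *C. elegans* the *npr* genes take their name from neuropeptide receptors, many of them related to receptors for neuropeptide Y or tachykinins, the *frpr* genes from the FMRFamide peptide receptor family, and the *dmsr* genes from the myosuppressin receptors of *Drosophila*. Single members are known for roles in feeding in groups, foraging, arousal and sleep. In sleep, the interneuron RIS releases FLP-11 peptides, and RIS needs the AP2 transcription factor APTF-1 to induce sleep.

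RNA was measured in whole pretzel-stage embryos, late embryos folded inside the eggshell, of the *aptf-1(gk794)* mutant and of the wild type N2. Both genotypes were hermaphrodite worms grown on *E. coli* OP50, and neither received another treatment. The sample records give a growth temperature of 21.5°C, while the study's general methods give a higher one. There were 4 samples per genotype, each pooled from about 3000 hand-picked embryos and hybridized to 1 one-color Agilent array. The comparison asks which receptor genes give a signal in the late embryo and whether their RNA differs when *aptf-1* is mutated. Because RNA came from whole embryos, fewer cells of a type and less RNA per cell cannot be told apart.

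Each signal was expressed on the log2 scale as its distance from the 75th percentile of its own array, so that 0 equals that percentile and a difference of 1 is a 2-fold change. Between 79.3% and 83.1% of all probes were well above background per array, no spot was saturated, and the number of arrays limits the precision. Correlations between arrays lay between 0.976 and 0.994. The signal of *aptf-1* itself was 0.75, 0.25, 0.66 and 0.42 on the N2 arrays and -1.36, -1.50, -1.80 and -1.48 on the mutant arrays, so it fell by 2.05 on the log2 scale (adjusted p = 0.00135 in limma). *flp-11* fell by 1.53 (adjusted p = 0.00135). All 13 pan-neuronal marker genes were detected, as were the muscle and pharynx markers. Of 4 intestine markers 3 were detected, and of 4 epidermis markers also 3. The undetected ones were *end-1*, an early endoderm gene, and *bli-1*, a cuticle collagen gene. Of 3 germ line markers, 1 was detected in N2 and 3 in the mutant. A spot marked as an outlier counted as not above background, so these counts need not be a difference in RNA. *pgl-1*, *glh-1* and *nos-2* lay at percentiles 58.6, 88.0 and 20.2 of the signal in N2. Their log2 fold changes were 0.12, -0.08 and 0.22, and none passed the test. The pan-neuronal genes had a median log2 fold change of 0.01.

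Most receptor genes gave a measurable signal in wild-type embryos. A gene was counted as detected when at least 1 of its probes was well above background on all 4 arrays of a genotype. A spot left out as an outlier counted as not above background. In N2 this held for 66 of the 70 receptor genes (94.3%), against a background of 82.2% of all genes with a probe. In *aptf-1* mutants it held for 65 of 70, against 82.4% of all genes. All 17 *frpr* genes with a probe were detected in N2, as were 39 of 41 *npr* genes and 10 of 12 *dmsr* genes. These shares describe the array and were not tested, since probes differ in how brightly they report the same amount of RNA.

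The spot brightness of the receptor probes lay in the middle of the array. Each probe was ranked by its signal among all probes, and the percentiles were averaged over the probes of a gene. The median receptor gene in N2 lay at the 56.8th percentile, close to the 55.8th of all genes, and 37 of the 70 receptor genes lay above the latter value. The medians were at percentile 58.8 for *npr*, 47.9 for *frpr* and 45.4 for *dmsr* genes. The rank is a description of brightness rather than of abundance. The 3 probes of *frpr-18* lay between percentiles 44.2 and 66.9, and the dimmest and brightest were named for the same transcript. Differences of this size between genes therefore cannot be read as differences in RNA. The 3 probes of *npr-5* lay between 71.3 and 84.0. The dimmest of them was named for a different transcript than the other 2, so probe and transcript cannot be told apart there.

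**Figure D1:**
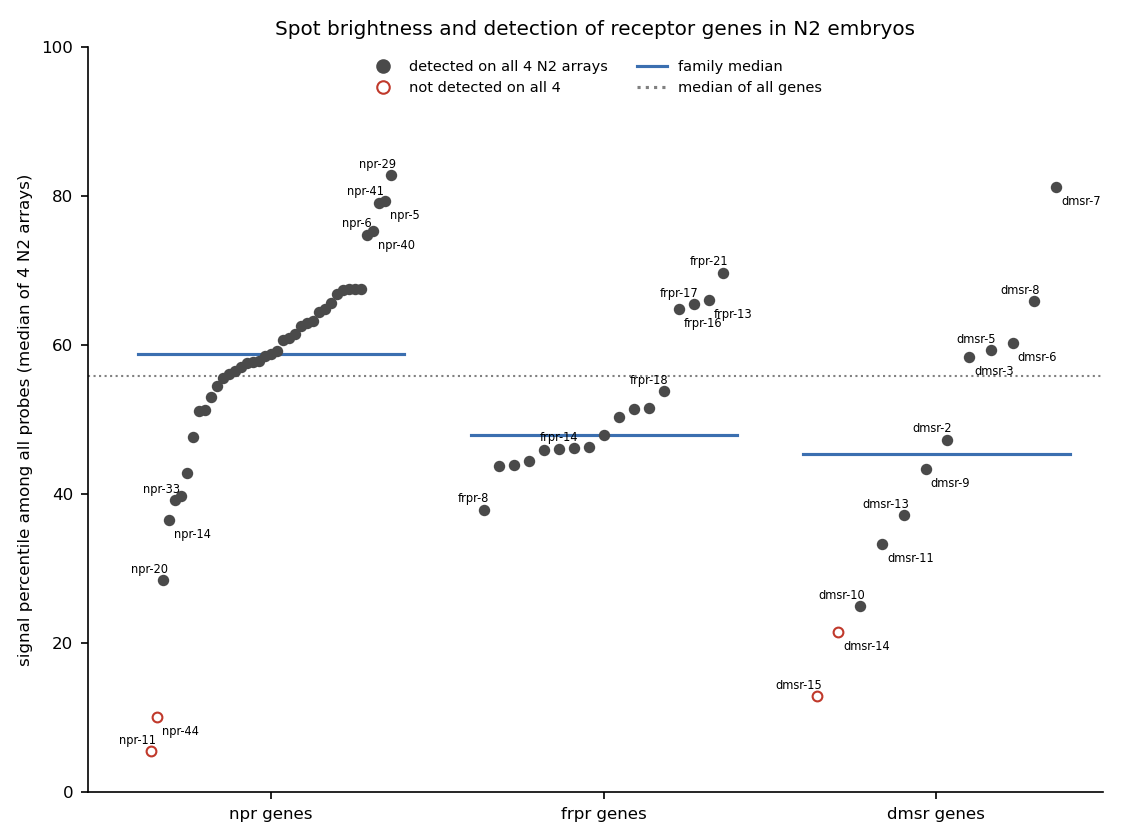
Signal percentile of each of the 70 receptor genes with a probe, averaged over its probes (median of 4 N2 arrays, vertical axis, 0 to 100), sorted within each family. Filled points are genes detected on all 4 N2 arrays, open points are the 4 that were not, horizontal lines are the family medians (58.8, 47.9 and 45.4) and the dotted line is the median of all genes (55.8).

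The brightest receptor genes were *npr-29* at percentile 82.8, *dmsr-7* at 81.2, *npr-5* at 79.4 and *npr-41* at 79.1. They were followed by *npr-40* at 75.3, *npr-6* at 74.8 and *frpr-21* at 69.7, and by *npr-23*, *npr-25* and *npr-31*, each at 67.5. *dmsr-7* encodes a receptor for FLP-1 peptides and *npr-5* a receptor for FLP-18 and FLP-21 peptides. None of these 10 genes passed the test between the genotypes, which 0.041% of all genes did. Their log2 fold changes ran from -0.21 to 0.14, and the 4 mutant and 4 N2 values overlapped for each of the 10. In all genes they failed to overlap in 1.44% (lower in the mutant) and 0.715% (higher), so these counts are no result about the 10.

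At the other end, the dimmest detected genes were *dmsr-10* at percentile 25, *npr-20* at 28.5, *dmsr-11* at 33.3, *npr-14* at 36.6 and *dmsr-13* at 37.2. *dmsr-10* was the only receptor gene detected in just 1 genotype, and it missed detection in the mutant by a single array: its probe was well above background on 4 N2 arrays and on 3 mutant arrays. The log2 fold changes of these 5 dim genes ran from -0.40 to 0.01, and none of the 5 passed the test (0.041% of all genes did).

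In N2, 4 receptor genes were not detected. *npr-11*, which encodes a receptor for NLP-1 peptides that acts in olfactory adaptation, lay at percentile 5.5 and was well above background on 0 of the 8 arrays. *npr-44* lay at percentile 10.1 and was well above background on 1 mutant array and on 0 N2 arrays. *dmsr-15*, at percentile 12.9, was well above background on 1 N2 array, with signals of -9.78, -8.99, -9.11 and -6.14 in N2 and -9.68, -10.38, -10.05 and -9.98 in the mutant. The signal of -6.14 on the fourth N2 array was thus the only one of *dmsr-15* that stood clear of background. *dmsr-14*, at percentile 21.5, was well above background on 3 N2 arrays and 2 mutant arrays, which was enough for it to be tested. For the other 3 genes no change between genotypes can be given.

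Part of the *dmsr* family forms a run in the genome. *dmsr-9*, *dmsr-10*, *dmsr-11*, *dmsr-12*, *dmsr-16*, *dmsr-14* and *dmsr-13* lie next to one another in that order in the gene table, a run of neighboring genes of the same family, and *dmsr-15* lies nearby. Of these 8 genes, 6 had a probe. They lay between percentiles 12.9 and 43.4, with a median of 29.1, whereas the other 6 *dmsr* genes with a probe lay between 47.3 and 81.2, with a median of 59.8. The latter include *dmsr-7* and *dmsr-8* at 81.2 and 65.9. As each of these genes is read by its own probes, this is a description of spot brightness and was not tested. Neighboring copies can share sequence, and whether their probes read more than 1 copy was not tested. The run formed by *frpr-13*, *frpr-12* and *frpr-11* had percentiles of 66.1, 46.0 and 51.6.

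No receptor gene passed the test between *aptf-1* mutants and N2. In limma with Benjamini-Hochberg adjustment over all 17063 genes tested, 0 of the 67 tested receptor genes had an adjusted p under 0.05 together with a fold change of at least 1.5. The background was 7 of 17063 genes, or 0.041%, so a count of 0 among 67 is near the background and is no result about the receptors. The adjusted p was 0.9997 for each of the 67 genes. At an unadjusted p under 0.05 there was 1 receptor gene, *frpr-14*, against 552 of all genes (3.24% in either direction, 2.4% lower in the mutant). A second test of each gene, which takes the variance from that gene alone, also gave 0 receptor genes after adjustment and 1, again *frpr-14*, at an unadjusted p under 0.05. This count depended on single arrays: it was 8 when N2 replicate 1 was left out, 6 when N2 replicate 4 was, and 2 when mutant replicate 1, 2 or 3 was. The shares of all genes in these fits are not given here, so these counts are no result about the receptors.

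The data also bound how large a change in the whole-embryo signal could have been. They do not bound a change confined to a few cells, which can be small in RNA from whole embryos. Log2 fold changes of the 67 receptor genes ran from -0.51 to 0.17. For 59 of them (88.1%) the 95% interval lay entirely within 1.5-fold in either direction, compared with 72.9% of all genes. The intervals of the other 8 (11.9%, against 18.9% of all genes) reached 1.5-fold lower in the mutant. Intervals reaching 1.5-fold higher were found for 0 receptor genes and for 14.5% of all genes. These 8 were *frpr-14*, *frpr-2*, *npr-13*, *npr-20*, *dmsr-8*, *dmsr-10*, *dmsr-13* and *dmsr-14*, and for them a decrease of that size could not be told from none at this precision, except for *frpr-14*, whose interval did not include 0. The intervals are not adjusted for the number of genes.

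**Figure D2:**
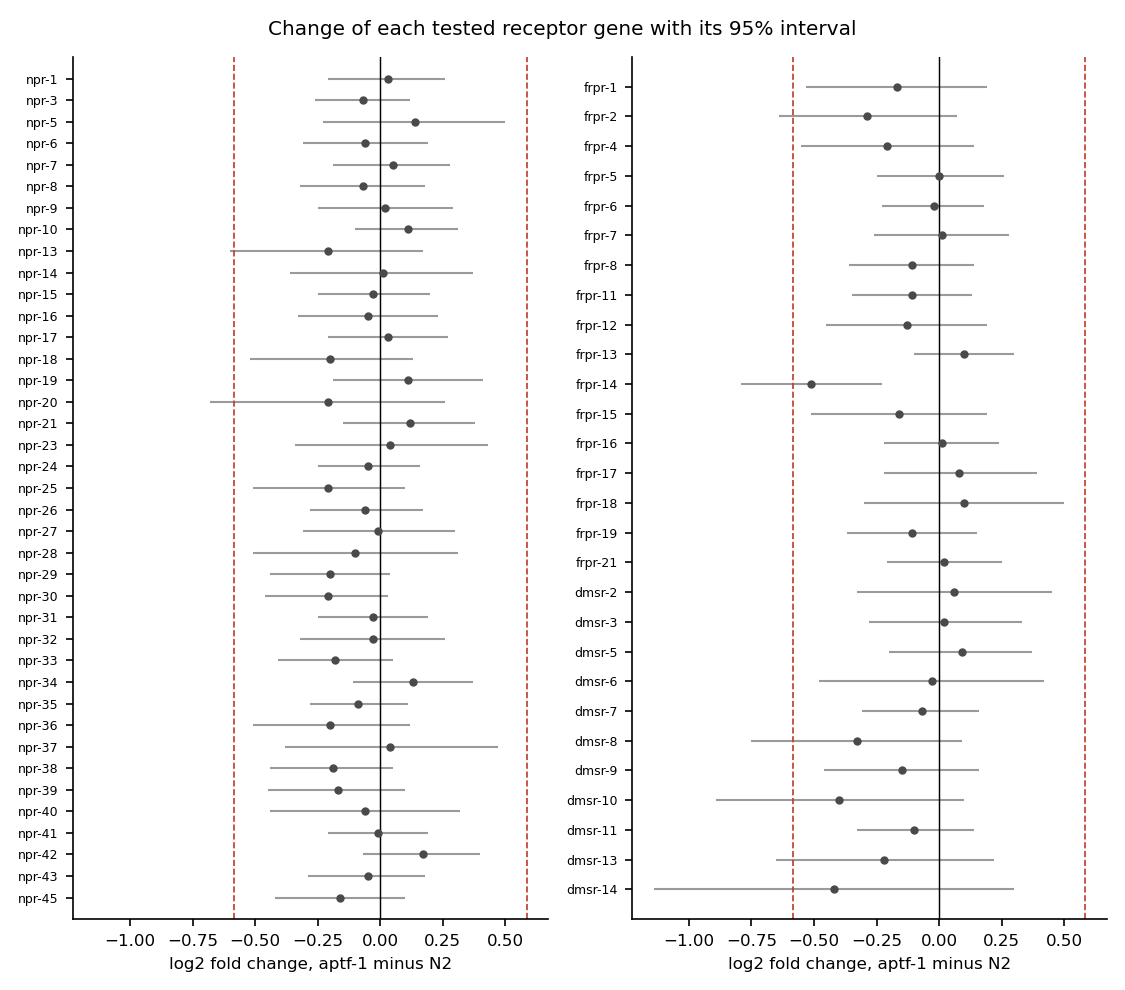
Log2 fold change of each of the 67 tested receptor genes (points; horizontal axis, *aptf-1* minus N2) with its unadjusted 95% interval from limma (bars), *npr* genes on the left, *frpr* and *dmsr* genes on the right. Dashed lines mark a 1.5-fold change. *frpr-14* is the only gene whose interval does not include 0, and 8 intervals (11.9%, against 18.9% of all genes) cross the left dashed line.

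*frpr-14*, a predicted FMRFamide peptide receptor gene, came closest to a call. Its signal was -3.48, -3.51, -3.65 and -3.47 on the N2 arrays and -4.37, -3.88, -3.95 and -3.95 on the mutant arrays. All 4 mutant values lay below all 4 N2 values, and mutant replicate 1 lay farthest down. Such a separation toward lower values was found in 1.44% of all genes, and *frpr-14* was the only receptor gene to show it. Toward higher values it was found in 0 receptor genes and 0.715% of all genes. The means were -3.53 ± 0.08 (SD, n = 4) in N2 and -4.04 ± 0.22 (SD, n = 4) in the mutant, so the mutant signal was 70.2% of wild type. The log2 fold change was -0.51 (standard error 0.12, 95% interval -0.79 to -0.23) with an unadjusted p of 0.00268 and an adjusted p of 0.9997 in limma. The exact two-sided permutation test gave p = 0.0286, the smallest that 4 against 4 arrays allow. Any gene with such a separation gets this value, so it adds nothing to the separation.

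The lower signal of *frpr-14* was present on both slides, with a log2 fold change of -0.63 on slide 1 and -0.39 on slide 2. Without mutant replicate 1 it was -0.40, and with a different background correction (normexp) it was -0.29. The adjusted p lay between 0.256 and 1.0000 over all alternatives. *frpr-14* is read by a single probe, at percentile 46.2 and detected on all 8 arrays. It was also singled out as the smallest p among 67 genes.

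The next smallest p-values among the receptor genes belonged to genes whose 2 genotypes overlapped. *npr-30* gave -3.05, -2.79, -2.86 and -2.71 in N2 and -3.20, -2.90, -3.09 and -3.06 in the mutant (log2 fold change -0.21, unadjusted p = 0.0833). *npr-29*, the brightest receptor gene, gave 0.55, 0.79, 0.86 and 0.92 in N2 and 0.49, 0.64, 0.50 and 0.69 in the mutant (-0.20, unadjusted p = 0.0943). In both genes N2 replicate 1 fell among the mutant arrays, while the other 3 N2 arrays lay above all 4 of them. *dmsr-10*, close to background, gave -7.55, -6.95, -6.74 and -6.67 in N2 and -7.66, -7.49, -7.0 and -7.34 in the mutant (-0.40, unadjusted p = 0.101). Here too N2 replicate 1 lay with the mutant arrays and the other 3 N2 arrays above them.

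*dmsr-8* showed the same arrangement. The mean of its 3 probes was -1.39, -0.89, -1.05 and -0.50 in N2 and -1.16, -1.23, -1.55 and -1.20 in the mutant. N2 replicate 1 lay below 3 of the 4 mutant arrays, and the log2 fold change of -0.33 had a 95% interval from -0.75 to 0.09. The 3 probes gave -0.51, -0.22 and -0.26, all of the same sign. The remaining genes of the 10 with the smallest p were *frpr-2* (-0.29), *npr-25* (-0.21), *npr-38* (-0.19), *npr-33* (-0.18) and *npr-42* (0.17). *npr-42* was the only one of the 10 with a higher mean in the mutant.

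With N2 replicate 1 left out, all mutant values lay below all N2 values in 7 receptor genes (10.4%): *dmsr-8*, *dmsr-10*, *frpr-2*, *frpr-4*, *frpr-14*, *npr-29* and *npr-30*. The same was found in 4.61% of all genes, up from 1.44% with every array. In *frpr-13* and *npr-42* (2.99%, against 2.92% of all genes) all mutant values then lay above all N2 values. With N2 replicate 4 left out, all mutant values lay below all N2 values in 5 receptor genes (7.46%, against 3.42% of all genes). These were *frpr-14*, *frpr-19*, *npr-33*, *npr-38* and *npr-39*. The opposite separation was found in *npr-5* and *npr-19* (2.99%, against 2.21% of all genes). Over the 8 arrays left out in turn, the share of receptor genes with lower mutant values was above that of all genes in 4 cases and below it in 4, with 1.49% of receptor genes and 2.14% to 2.54% of all genes in the latter. The 2 lists of genes with lower values shared only *frpr-14*. As *frpr-14* was already separated with every array, leaving out an array could not undo this, so its place in both lists is no separate result. These counts were made after the values were seen.

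**Figure D3:**
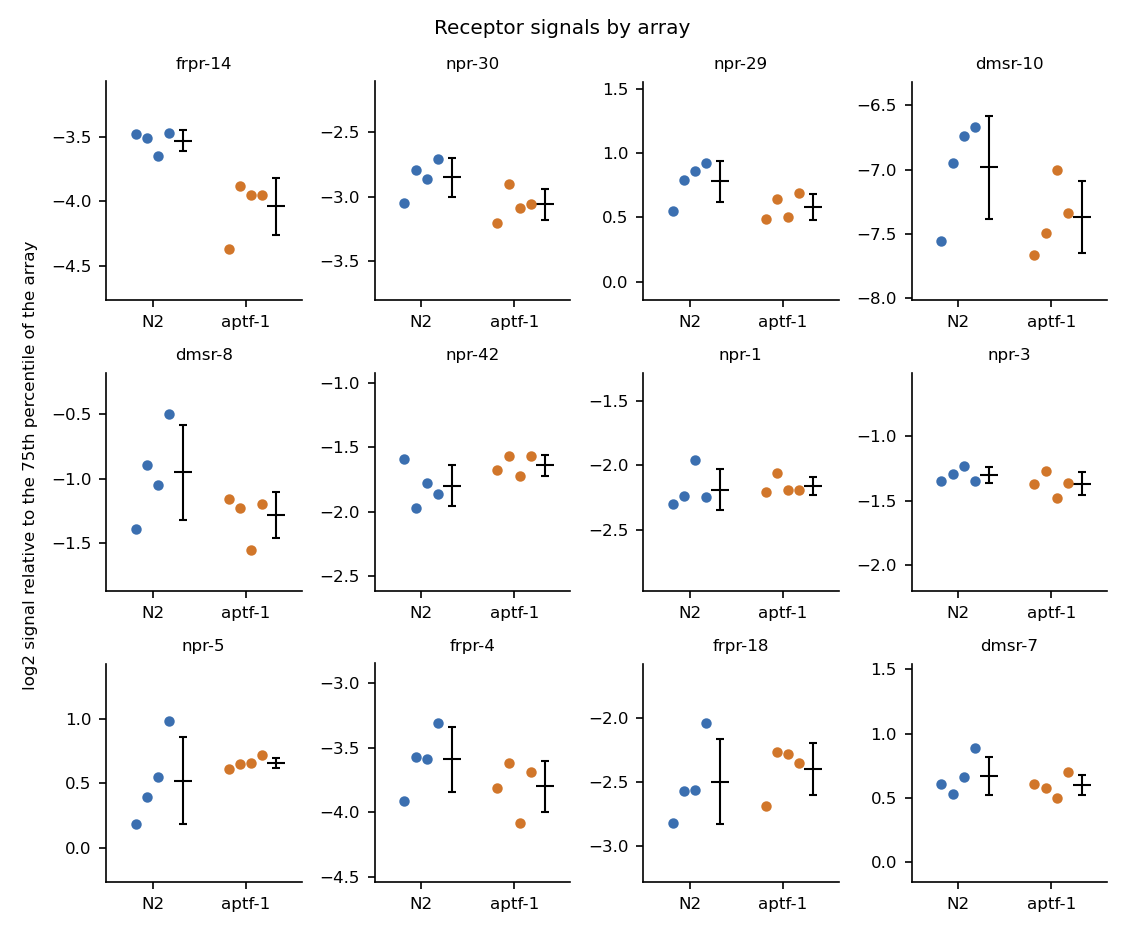
Log2 signal relative to the 75th percentile of the array (vertical axis, the same span in each panel) for 12 receptor genes on each N2 and *aptf-1* array, with the mean and SD (n = 4) beside the points. *frpr-14* is the only one of the 12 in which the genotypes do not overlap, which 1.44% of all genes show in the same direction.

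Of 14 receptors picked for a known ligand or role, which need not be all such receptors, 12 could be tested. None passed the test, which 0.041% of all genes did. Their log2 fold changes ran from -0.21 to 0.14 with 5 below and 7 above 0, while 55.2% of all genes lay below 0. The genotypes overlapped in all 12. In all genes they failed to overlap in 1.44% (lower in the mutant) and 0.715% (higher). These counts are no result about these receptors. *npr-1*, which encodes a receptor for FLP-18 and FLP-21 that controls feeding in groups and locomotor quiescence, gave -2.30, -2.24, -1.96 and -2.25 in N2 and -2.21, -2.06, -2.19 and -2.19 in the mutant. Its log2 fold change was 0.03 (standard error 0.10, 95% interval -0.21 to 0.26). *npr-5*, which shares these ligands, gave 0.18, 0.39, 0.55 and 0.98 in N2 and 0.61, 0.65, 0.66 and 0.72 in the mutant. The mutant arrays of *npr-5* lay close together inside the wide N2 range, and the log2 fold change was 0.14 (95% interval -0.23 to 0.50).

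2 further tested receptors act in sleep and arousal. *frpr-4*, which encodes a receptor for the sleep-promoting FLP-13 peptides, gave -3.91, -3.57, -3.59 and -3.31 in N2 and -3.81, -3.62, -4.08 and -3.69 in the mutant. The log2 fold change of -0.21 (95% interval -0.55 to 0.14) came from slide 2, where it was -0.44, while slide 1 gave 0.02. *frpr-18*, which encodes a receptor for the arousing FLP-2 peptides, gave -2.82, -2.57, -2.56 and -2.04 in N2 and -2.69, -2.27, -2.28 and -2.35 in the mutant (0.10, 95% interval -0.30 to 0.50). N2 alone spanned the mutant values in *frpr-18*, and its 3 probes gave log2 fold changes of 0.06 to 0.13.

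*dmsr-7*, the FLP-1 receptor gene, gave 0.61, 0.53, 0.66 and 0.89 in N2 and 0.61, 0.58, 0.50 and 0.70 in the mutant, a log2 fold change of -0.07 (95% interval -0.31 to 0.16). *npr-3*, which encodes a receptor for FLP-15, and *npr-10*, which encodes one for FLP-3, gave log2 fold changes of -0.07 (95% interval -0.26 to 0.12) and 0.11 (-0.10 to 0.31). Their standard errors of 0.08 and 0.09 were below the median of 0.12 over the tested receptor genes. *npr-9*, which is related to galanin and allatostatin receptors and acts in the interneuron AIB, gave 0.02 (-0.25 to 0.29). *npr-17*, an opioid receptor-like gene, gave 0.03 (-0.21 to 0.27), and *npr-8*, which acts on collagen expression in pathogen defense, gave -0.07 (-0.32 to 0.18). *npr-19* and *npr-32*, both tied to endocannabinoid responses, gave 0.11 (-0.19 to 0.41) and -0.03 (-0.32 to 0.26).

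The tested receptor genes nearest to the genes called in the mutant did not pass the test themselves. *npr-3* lies 2 protein-coding genes away from C10C6.7, which had a log2 fold change of -1.74, against -0.07 for *npr-3*. *npr-1* lies 15 genes away from *flp-11*, which had -1.53, against 0.03 for *npr-1*. *npr-9* lies 42 genes away from *sto-3* (-1.99) and had 0.02. The nearest to *nhj-1* (-1.79) was *frpr-9*, 34 genes away, which had no probe, and *npr-25*, 63 genes away, had -0.21. *npr-13*, with -0.21, was the nearest to *fbxa-192* (-1.30), 802 genes away, and to *str-15* (1.56), 513 genes away. The receptor genes nearest to *aptf-1* itself were *frpr-16*, 93 genes away, with 0.01, and *npr-31*, 170 genes away, with -0.03.

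As a group, the receptor genes had a median log2 fold change of -0.06, beside -0.02 for all genes tested. The value was below 0 in 44 of 67 receptor genes (65.7%) and in 55.2% of all genes. Medians were -0.05 for *npr*, -0.11 for *frpr* and -0.10 for *dmsr* genes. The 5 tested genes from *dmsr-9* to *dmsr-16* all had values below 0, with a median of -0.22 and a range of -0.42 to -0.10, while the other *dmsr* genes had a median of -0.00. None of the 5 passed the test, and these values depended on the background correction: with normexp the median was -0.05, *dmsr-10* gave -0.05, *dmsr-14* -0.00, *dmsr-13* -0.11, *dmsr-11* -0.08 and *dmsr-9* 0.01. With array weights *dmsr-14* gave 0.06.

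The receptor median differed by more between arrays of the same genotype than between the genotypes. Taking each receptor gene relative to its own mean over the 8 arrays, the median deviation was -0.04, 0.02, 0.06 and 0.05 on the N2 arrays and -0.11, 0.06, -0.08 and -0.00 on the mutant arrays. The lowest median was that of mutant replicate 1, while mutant replicate 2 and N2 replicate 3 both stood at 0.06. Over all genes the medians were 0.05, -0.02, 0.01 and -0.01 on the N2 arrays and -0.01, -0.02, -0.00 and -0.00 on the mutant arrays. On the level of single genes, 55 of 67 receptor genes lay below their mean on mutant replicate 1 and 18 of 67 on mutant replicate 2. The shares of all genes for these counts are not given here. Without mutant replicate 1 the median log2 fold change of the receptor genes was -0.027, and without mutant replicate 2 it was -0.095. On slide 1 the median was -0.01, with 38 of 67 genes below 0, and on slide 2 it was -0.09, with 51 of 67.

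**Figure D4:**
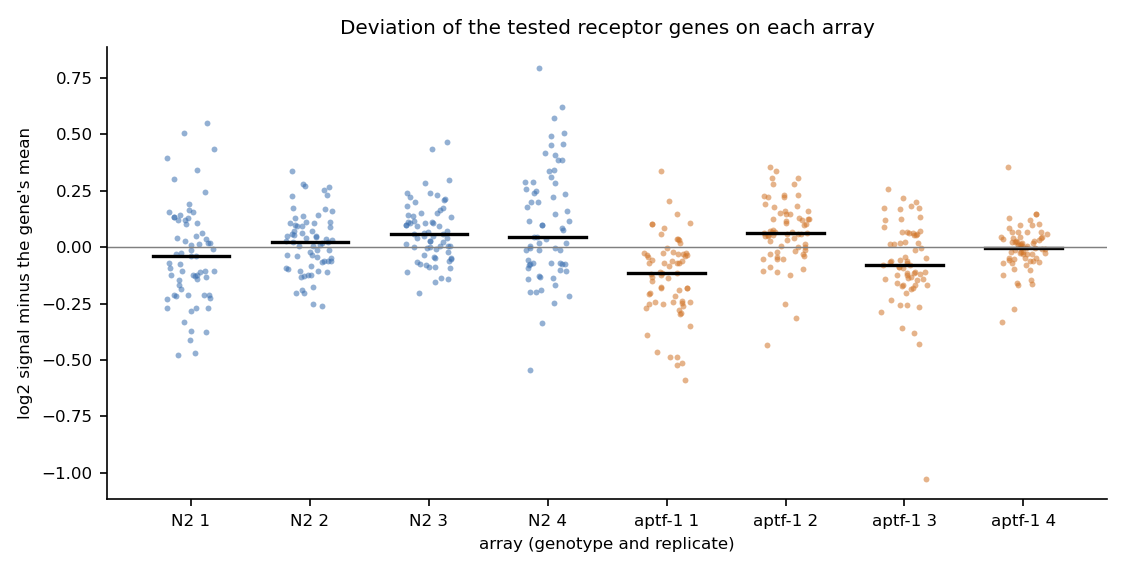
Deviation of each of the 67 tested receptor genes from its own mean over 8 arrays (points; vertical axis, log2 units) on each N2 and *aptf-1* array, with the median as a black line. Mutant replicate 1 has the lowest median (-0.11), while mutant replicate 2 and N2 replicate 3 have medians of 0.06.

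Arrays also differed in how widely the receptor genes scattered. The SD of the deviations over the 67 genes was 0.22, 0.13, 0.13 and 0.25 on the N2 arrays and 0.18, 0.14, 0.19 and 0.10 on the mutant arrays, with N2 replicates 1 and 4 the widest. The SD between N2 arrays was larger than that between mutant arrays for 43 of 67 receptor genes (64.2%), and this was also so for 63.6% of all genes. In *npr-5*, *dmsr-8* and *frpr-18*, described above, N2 replicate 1 was the lowest and N2 replicate 4 the highest of the N2 arrays.

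Other genes of the pathway were looked at in the same way. Of 29 further genes for peptide and peptide hormone receptors, such as those for cholecystokinin-like, neuromedin U-like, tachykinin-like and gonadotropin-releasing hormone-like peptides, 25 were measured and detected in both genotypes. 0 of the 25 passed the test, against 0.041% of all genes, and their median log2 fold change was -0.07. The one with an unadjusted p under 0.05 was *tkr-1*, a tachykinin receptor-like gene (-0.32, unadjusted p = 0.0389, adjusted p = 0.9997). Of 39 genes for G proteins and their effectors and regulators, which carry the receptors' signal in the cell, 36 were tested. 0 passed, 0 had an unadjusted p under 0.05 (3.24% of all genes), and the median was -0.02. The genotypes did not overlap in 1 gene of each list. It was higher in the mutant in the first list (0.715% of all genes) and lower in the second (1.44%). These counts are no result about the pathway. *goa-1*, which encodes the Go alpha subunit, gave 0.02, and *egl-30*, which encodes the Gq alpha subunit, gave -0.10.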

How the data were processed

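The authors deposited Agilent Feature Extraction 10.7.3.1 output with background-corrected and median spot intensities and scanner marks (outlier, saturated, well above background), and a table of log2 values that holds quantile-normalized intensities of the same arrays. Genotypes and replicate numbers came from the sample records. Whether samples came from separate cultures is not stated, so p-values measure the spread between these samples. Each of 2 slides carried 2 N2 and 2 mutant arrays, and all were scanned on 1 day.

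Of 45220 spots, 1417 control spots and 62 to 188 outlier spots per array were left out. Of 43603 probes, 34268 were matched by sequence name or accession to the RefSeq table of WBcel235, used only for names and gene order because the array design is older. Log2 intensity minus the array's 75th percentile was averaged over spots. Probes that passed the scanner's background mark on 4 or more of the 8 arrays were averaged per gene and fitted in limma 3.58.1 (R 4.3.3; lmFit and eBayes) with Benjamini-Hochberg adjustment. The fit was tested on simulated data. A t-test of each gene was an alternative. It stands in the study's general list of tests beside others and is not stated there for the arrays.

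Named receptors are the 10 with the smallest p, the 10 brightest, the 5 dimmest detected, and those detected in 1 genotype or not detected. To these were added 14 picked for a known ligand or role. The genes, the lists and this rule were chosen with earlier results of these data known. Other genes are named where a result turns on them. Promoter sequences were not analysed here.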

Additional observations from a re-analysis of the deposited data

Results flagged for a closer look

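Of 74 sets of 4 values compared (the 33 named and tested receptor genes, *aptf-1* and *flp-11* in each genotype, and array measures; the other receptor genes were not screened), 5 held a sample whose gap to its nearest neighbor took up more of the range than Dixon's 95% limit, which chance passes in about 1 of 20 sets. In *aptf-1* mutants, replicate 1 of *frpr-14* was -4.37 with the others between -3.95 and -3.88. Replicate 4 of *npr-38* was -4.94 with the others between -4.71 and -4.70. Replicate 3 of *frpr-21* was -0.76 with the others between -0.49 and -0.45. Replicate 2 of *npr-1* was -2.06 with the others between -2.21 and -2.19. In N2, 79.3% of probes were well above background in replicate 2 and 82.4% to 82.5% in the others. These samples were kept.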

How the results depend on the processing

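The number of receptor genes called was 0 in all 26 alternatives, and their median log2 fold change stayed between -0.095 and -0.027. Receptor genes at an unadjusted p under 0.05 numbered 8 with array weights, 2 with normexp, 2 when slide was a block and 3 with the replicate block. With 1 array left out they numbered 1 to 8, and *frpr-14* was among them each time. The shares of all genes in these settings are not given here, so these counts are no result about the receptors. Called genes overall numbered 12 with array weights, 3 with a t-test of each gene after adjustment, 73 before it, 18 for probes tested alone and 5 to 9 with 1 array left out. Same-numbered samples correlated at 0.39, 0.23, -0.10 and 0.08, so they were not treated as pairs. The replicate block gave 5 called genes overall. Detected receptor genes numbered 66 to 67 in N2 and 65 to 67 in the mutant under other detection rules. *dmsr-10* and *dmsr-14* could not be tested with the filter on all 8 arrays.

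Of 33 named receptor genes tested, 19 kept their sign throughout. Signs turned with median centring for *npr-41* (0.00), with normexp for *npr-23* (-0.03), *npr-1* (-0.03) and *npr-32* (0.03), and with array weights for *dmsr-7* (0.06), *npr-41* (0.01), *npr-6* (0.05), *npr-23* (-0.15), *npr-31* (0.04), *npr-14* (-0.05), *dmsr-14* (0.06) and *npr-1* (-0.04). With 1 array left out they turned for *npr-41* (-0.04 to 0.03), *npr-40* (-0.19 to 0.09), *npr-6* (-0.12 to 0.01), *frpr-21* (-0.02 to 0.09), *npr-23* (-0.13 to 0.13), *npr-31* (-0.07 to 0.03), *npr-14* (-0.08 to 0.16), *npr-1* (-0.01 to 0.10), *npr-9* (-0.05 to 0.12), *npr-17* (-0.04 to 0.08), *npr-32* (-0.14 to 0.05) and *frpr-18* (-0.01 to 0.25). The cause was not tested. Normexp, planned on mean spot intensities, used medians.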
